A study of Mus musculus with 6 samples.

Results

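The 39 Hox genes of the mouse genome that lie in the Hoxa, Hoxb, Hoxc and Hoxd clusters were followed across 6 microarrays of sorted bone marrow progenitors. They were found by name: every non-control probe whose deposited gene name was Hox, a cluster letter from a to d, and a number from 1 to 13. This gave 45 probes for 39 genes, of 55681 probes and 34821 gene names on the array. The genes comprised 11 of Hoxa, 10 of Hoxb, 9 of Hoxc and 9 of Hoxd, and 6 of them, Hoxa3, Hoxa9, Hoxa13, Hoxb3 and Hoxd11 among these, carried 2 probes.

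The study compared LSK cells (lineage-negative, Sca-1-positive, Kit-positive cells, the fraction that holds blood stem cells and early multipotent progenitors) of mice with wild-type NIK and mice homozygous for the aly allele of NIK, written NIKaly/aly. NIK is the product of Map3k14, a kinase that turns on the alternative NF-kB pathway, and the aly allele makes a defective protein. There were 3 wild-type samples, numbered 1, 3 and 5, and 3 NIKaly/aly samples, numbered 2, 4 and 6, each on 1 single-colour Agilent array. Age, sex, strain background and the number of mice behind each sample were not given in the sources used here, so the p-values below rest on the variation among these 6 arrays, part of which may be technical. The allele is carried by all cells of the animal, not by blood cells alone.

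Hox genes encode homeodomain transcription factors that sit in 4 clusters, in an order that parallels where and when they are used along the body axis. Genes that hold the same place in different clusters share a number and are called paralogs. In blood, several Hoxa and Hoxb genes are active in stem cells and early progenitors and are turned down as cells mature, and Hoxa9 together with its partner Meis1 is a well-known driver of acute leukaemia. The MLL complexes keep the clusters open, the Polycomb complexes keep them silent, and the TALE proteins of the Pbx, Meis and Pknox families bind DNA beside Hox proteins.

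The sequences show what the probes read. The Hoxa6 probe covers the codons of the short peptide through which a Hox protein grips Pbx. Capitals mark the codons of tyrosine, proline, tryptophan and methionine in that peptide. The pattern of these codons is present on the probe strand in 4 probes of the array and in 1 probe of a Hox cluster gene. The probe lies on the minus strand at chr6:52158194-52158253 of build mm9.

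Hoxa6: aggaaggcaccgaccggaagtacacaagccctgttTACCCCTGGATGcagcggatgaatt

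The probe of Hoxc11 lies in the homeobox itself, and capitals mark the codons of tryptophan, phenylalanine, glutamine and asparagine in the DNA-recognition helix. The pattern of these codons is in 13 probes of the array, 2 of them of Hox cluster genes. It is shown as a member of the cluster in which no gene was detected. It lies on the plus strand at chr15:102787022-102787081 of mm9.

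Hoxc11: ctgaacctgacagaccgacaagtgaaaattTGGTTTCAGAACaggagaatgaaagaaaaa

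For members whose readings carry most of what follows, the last 30 of the 60 probe bases are shown. Capitals mark AATAAA, the hexamer that commonly precedes the end of a messenger RNA. It was found in 7 of the 45 Hox probes (15.6%) and in 10.1% of all probes. Hoxa11, which no array detected, is included because its probe holds the hexamer as the Hoxb4 probe does. Both Hoxa9 probes are shown because both were read on all 6 arrays.

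Hoxa7: attgattttagttacaaaaatggggggaaa

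Hoxa9, brighter probe: tcctccagttgatagagaaaaacaacccag

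Hoxa9, second probe: aaggactgtccgtctccctctgtctcctct

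Hoxa10: ggaagcatggacattcaggttagctaaagg

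Hoxa11: caaaagactgtaAATAAAgaaaccataacc

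Hoxb4: gacaacagaAATAAAtgtttggtttcttgt

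A reading is the log2 of the background-subtracted signal of a probe minus the 75th percentile of its array. A probe was detected when the scanner software marked it well above background. Between 33.1% and 45.6% of probes were so marked per array, and the 75th percentile ran from 47.0 to 225 signal units, so the lowest detected reading differed from array to array, between -3.74 on wild type 3 and -1.58 on NIKaly/aly 6. Genes with a probe marked on at least 3 of 6 arrays, 15687 in all, were tested. Of the LSK markers, 7 of 10, among them Kit, Ly6a and Flt3, were detected on all 6 arrays, and no LSK marker was undetected throughout. Map3k14 was detected on all 6 arrays, with mean readings of 1.78 ± 0.93 in wild type and 2.09 ± 0.47 in NIKaly/aly (SD, n = 3 each). Its transcript level does not check the genotype, because the aly allele changes the protein.

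The Hoxa cluster was the most widely detected. Of its 11 genes, 9 were detected on at least 1 array, against 5 of 10 in Hoxb, 0 of 9 in Hoxc and 1 of 9 in Hoxd. Over the 4 clusters, 5 genes were detected on all 6 arrays (Hoxa3, Hoxa7, Hoxa9, Hoxa10 and Hoxb4), 9 on at least 3, 15 on at least 1 and 24 on none. Of all gene names on the array, 35.7% were detected on all 6 arrays, 45.2% on at least 3, 55.5% on at least 1 and 44.5% on none. The 39 genes were thus detected less widely than the array as a whole. Of the 11 Hoxa genes, 9 were detected on at least 1 array and 7 on at least 3, more widely than the array. On all 6 arrays 4 of the 11 were detected, close to the array's 35.7%. These are counts without a test.

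**Figure D1:**
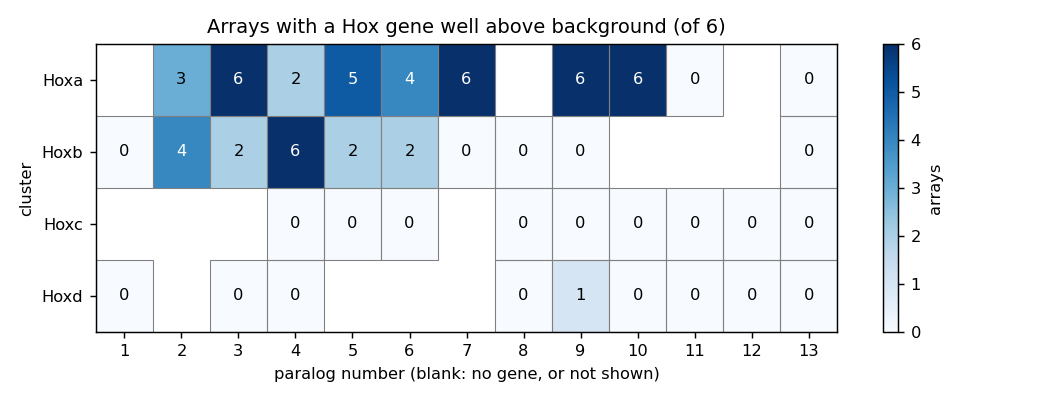
Number of arrays, of 6, on which each Hox gene had a probe well above background, by cluster (rows) and paralog number (columns); blank squares mark numbers that the cluster lacks or that are not shown. Hoxa3, Hoxa7, Hoxa9, Hoxa10 and Hoxb4 reach 6, and every Hoxc square holds 0.

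Detection followed position within the Hoxa cluster on chromosome 6. The stretch from Hoxa2 to Hoxa10 was detected throughout, on 3 arrays for Hoxa2, 6 for Hoxa3, 2 for Hoxa4, 5 for Hoxa5, 4 for Hoxa6 and 6 each for Hoxa7, Hoxa9 and Hoxa10. Beyond Hoxa10, Hoxa11 and Hoxa13, which pattern limbs and the genital tract, were detected on none.

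In the Hoxb cluster, which spans 170.657 kb (chr11:96057854-96228510, mm9), the detected genes were Hoxb2 on 4 arrays, Hoxb3 on 2, Hoxb4 on 6, and Hoxb5 and Hoxb6 on 2 each. They are neighbours, from Hoxb2 to Hoxb6. Hoxb1 on the near side of them, and Hoxb7, Hoxb8, Hoxb9 and Hoxb13 on the far side, were undetected on every array.

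The Hoxc cluster (chr15:102759058-102867272, mm9; 108.215 kb) had no detected gene among Hoxc4, Hoxc5, Hoxc6, Hoxc8, Hoxc9, Hoxc10, Hoxc11, Hoxc12 and Hoxc13. In the Hoxd cluster (chr2:74509248-74603059, mm9; 93.812 kb), Hoxd9 was detected on wild type 3 alone. Hoxd1, Hoxd3, Hoxd4, Hoxd8, Hoxd10, Hoxd11, Hoxd12 and Hoxd13 were undetected. Hoxc and Hoxd genes are known for patterning the trunk, the limbs and the skeleton, and stromal cells of bone carry some of them. Of 12 stromal markers, 6 (Col3a1, Pdgfra, Dcn, Lum, Prrx1 and Sp7) were undetected on all arrays and 4 were detected on all 6. The summed stromal signal ran from 6.84 to 9.62 times the 75th percentile in wild type and from 5.35 to 8.30 in NIKaly/aly.

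**Figure D2:**
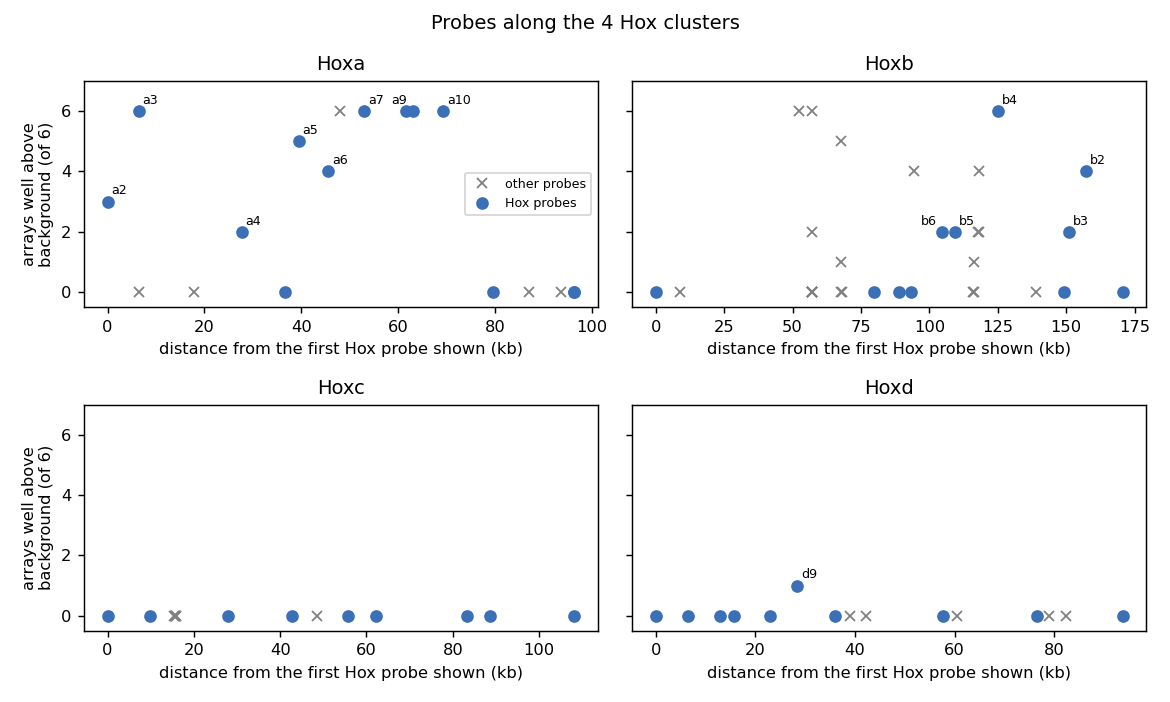
Each Hox probe at its distance in kb from the first Hox probe shown of its cluster (x axis), against the number of arrays on which it was well above background (y axis), with a panel for each cluster; grey crosses are probes of other names between them. Detected Hox probes of Hoxa and Hoxb form 1 stretch each, with undetected probes beyond them and second probes of Hoxa3 and Hoxb3 at 0 within them.

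How many genes counted as detected depended on the criterion. By the scanner's looser mark (signal positive and significant against background), 10 genes passed on all 6 arrays and 31 on at least 1, with 8 on none. The 31 were 11 of 11 Hoxa genes, 7 of 10 Hoxb, 8 of 9 Hoxc and 5 of 9 Hoxd, so Hoxc went from 0 genes to 8 and stood above Hoxb. The genes added at 6 arrays were Hoxa2, Hoxa5, Hoxa6, Hoxb2 and Hoxc6. With the 99th percentile of each array's negative control spots as the limit, 6 genes passed on all arrays, 5 of Hoxa (Hoxa3, Hoxa6, Hoxa7, Hoxa9 and Hoxa10) and Hoxb4. At least 1 array then showed 10 Hoxa, 5 Hoxb, 3 Hoxc and 2 Hoxd genes. This limit was not alike on all arrays, at 6.17 signal units on wild type 1 and 92.8 on NIKaly/aly 4. The lowest signals marked well above background there were 15.4 and 19.3, so it was looser on some arrays and stricter on others. Hoxa came ahead of the other clusters under all 3 criteria, while the order of Hoxb, Hoxc and Hoxd changed between them. The 24 genes undetected throughout had 26 probes, whose median reading on an array lay between -5.71 and -3.61. On 5 arrays each of these probes read below the lowest detected probe of that array, and on NIKaly/aly 6, 2 of them read above it.

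Among the 6 genes detected on 1 or 2 arrays, Hoxa4, Hoxb3, Hoxb5 and Hoxb6 were all detected on the same arrays, wild type 3 and NIKaly/aly 4. These are the arrays with the largest shares of probes above background (45.6% and 43.8%), and of 1382 genes on the array detected on exactly 2 arrays, 1002 (72.5%) were detected on that pair. The Hox genes therefore did as most genes at the edge of detection did.

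Readings are given from here on in the order of the sample numbers, 1, 3 and 5 for the wild-type samples and 2, 4 and 6 for the NIKaly/aly samples. Hoxa4, a gene of the hindbrain and neck that is also expressed in blood progenitors, read -3.69, -2.98 and -3.10 in the wild-type samples and -4.40, -2.35 and -3.64 in the NIKaly/aly samples. Hoxb5, used to mark long-term stem cells in mice, read -2.91, -2.13 and -2.82 in the wild-type samples and -2.83, -2.68 and -3.90 in the NIKaly/aly samples. Hoxb6 read -3.63, -2.61 and -2.87 in the wild-type samples and -2.91, -1.99 and -3.42 in the NIKaly/aly samples. In each of the 3 genes the readings of both genotypes overlapped, and those outside wild type 3 and NIKaly/aly 4 are bounds rather than levels.

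Hoxb3, whose protein shares paralog group 3 with Hoxa3, read -3.91, -2.71 and -3.24 in the wild-type samples and -3.85, -2.44 and -3.35 in the NIKaly/aly samples. Its detected probe lies at chr11:96209002-96209061, and its second probe was undetected. Hoxd9 read -1.59 on wild type 3 and between -5.55 and -3.73 on the other 5 arrays. The wild-type mean was not above the detection limit of the NIKaly/aly arrays, so no fold is given.

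The 9 tested genes are given in the order of their place in the clusters, with readings in every sample. Readings are compared between samples for a gene, not between genes, because probes differ in how brightly they hybridise. Hoxa2, a gene of hindbrain and neural crest, read -3.41, -2.05 and -2.34 in the wild-type samples and -3.15, -1.88 and -1.06 in the NIKaly/aly samples. It was not well above background on samples 1, 2 and 5, so those readings are bounds. The lowest detected reading of the array of wild type 1 (-1.61) lay above the readings of samples 3 and 4, so wild type 1 cannot be ranked against them. Among the 3 arrays that detected Hoxa2, NIKaly/aly 6 was the highest.

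Hoxa3, which patterns the pharyngeal arches and is expressed in blood progenitors, read -1.23, 1.11 and 0.83 in the wild-type samples and -0.41, 1.35 and 0.98 in the NIKaly/aly samples. Samples 1 and 2 were the lowest, and samples 3 to 6 lay close together. A second Hoxa3 probe, at chr6:52149150-52149208 and named for an Ensembl transcript, was undetected on all arrays.

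Hoxa5, a regulator of lung and skeletal development that also acts in blood progenitors, read -2.75, -0.59 and -0.91 in the wild-type samples and -2.30, -0.25 and -1.16 in the NIKaly/aly samples. Wild type 1 was not well above background. Hoxa6 read -2.11, 0.05 and -0.69 in the wild-type samples and -2.52, -0.24 and -0.43 in the NIKaly/aly samples. Samples 1 and 2 were again the lowest for both genes, and for Hoxa6 neither was well above background.

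Hoxa7 stood on all 6 arrays and varied less, at 2.36, 3.21 and 2.41 in the wild-type samples and 2.55, 3.07 and 1.94 in the NIKaly/aly samples. Its highest readings were samples 3 and 4 and its lowest was sample 6.

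Hoxa9, the Hox gene best known for sustaining stem cell and leukaemia self-renewal, read 0.56, 1.998 and 1.24 in the wild-type samples and 0.76, 1.78 and 1.93 in the NIKaly/aly samples with its brighter probe (chr6:52175595-52175654). The second probe (chr6:52174165-52174224) read 0.28, 0.91 and 0.31 in the wild-type samples and 0.59, 0.88 and 0.82 in the NIKaly/aly samples. Sample 1 was lowest and sample 3 highest with both probes. Sample 2 was second lowest with the brighter probe, but lay above sample 5 with the second.

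Hoxa10, a paralog-group neighbour of Hoxa9 that also expands progenitors when overexpressed, read -0.41, -0.66 and -1.08 in the wild-type samples and -0.38, -0.55 and -0.68 in the NIKaly/aly samples. Samples 1 and 2 were its highest readings, whereas they were the lowest for Hoxa9 with the brighter probe. That order held under quantile scaling and under normexp with quantile scaling, and was lost when arrays were scaled by their median or by the probes detected on all arrays.

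Hoxb2, a hindbrain gene also expressed in early erythroid cells, read -1.84, -3.07 and -1.98 in the wild-type samples and -2.84, -2.30 and -1.29 in the NIKaly/aly samples. It was not well above background on samples 1 and 2. Hoxb4, used experimentally to expand blood stem cells, read -0.54, 0.65 and 0.21 in the wild-type samples and -0.32, 0.80 and -0.80 in the NIKaly/aly samples. Samples 3 and 4 were the highest for Hoxb4 and sample 6 the lowest.

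**Figure D3:**
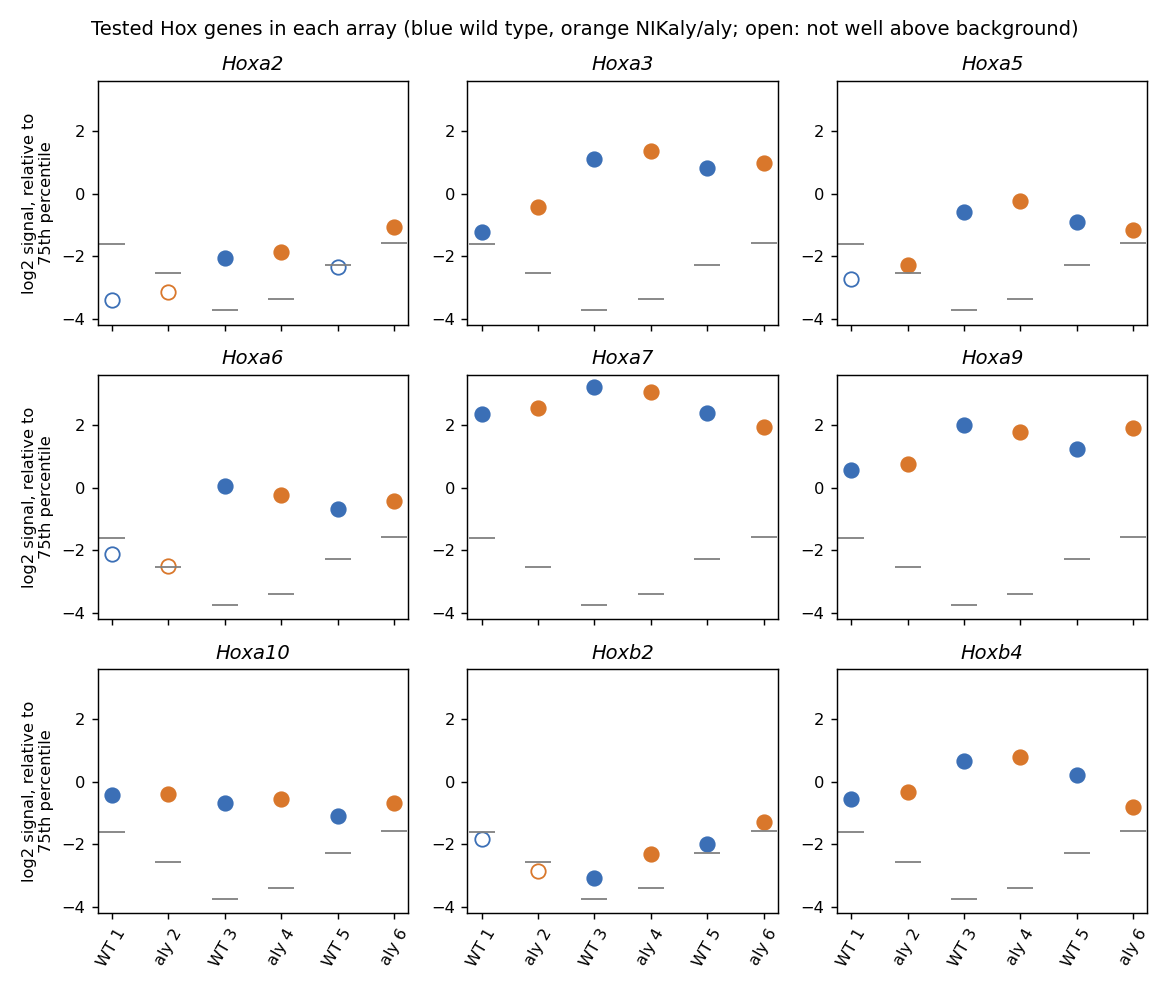
Log2 reading relative to each array's 75th percentile (y axis) in samples 1 to 6 (x axis) for the 9 tested Hox genes, a panel each, wild type in blue and NIKaly/aly in orange, with open points not well above background and a grey dash at the lowest detected reading of each array. Samples 1 and 2 are lowest for Hoxa3, Hoxa5, Hoxa6 and Hoxa9, and the genotypes overlap in every panel.

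Samples 1 and 2, of opposite genotype, held the 2 lowest readings for Hoxa3, Hoxa5, Hoxa6 and Hoxa9. Hoxa2 had the same order of readings, which makes 5 of the 9 tested genes, but both of its readings are bounds and its order was not measured. By readings alone, bounds included, the same was true of 2641 of 15687 tested genes (16.8%). The 5 genes kept this order of readings under all 5 scalings compared. The median spread from lowest to highest array was 1.78 log2 units over the 9 Hox genes and 1.21 over all tested genes. The 1.78 was the spread of Hoxb2, and the spreads of Hoxa2, Hoxa5, Hoxa6 and Hoxb2 include bounds. The 5 Hox genes detected on all 6 arrays had spreads of 2.59 (Hoxa3), 1.60 (Hoxb4), 1.44 (Hoxa9), 1.27 (Hoxa7) and 0.70 (Hoxa10). The part of dim readings in the Hox median was not tested. The summed signals of erythroblast, neutrophil, B cell and T cell markers were highest on samples 1 and 2. That of macrophage markers was not, at 48.6 and 21.6 on samples 1 and 2, against 29.0, 19.0, 33.7 and 18.1 on samples 3 to 6. The summed signal of 8 erythroblast markers was 387 and 179 times the 75th percentile on samples 1 and 2 and between 8.42 and 20.1 on samples 3 to 6, while 2 of the 8, Epb4.2 among them, were undetected throughout. Hbb-b1 and Hba-a1 were the brightest of the 8 on samples 1 and 2. Tfrc did not follow, with log2 readings of 0.81 and 1.06 on samples 1 and 2 and 0.74 to 1.27 on samples 3 to 6. The summed signal of 9 neutrophil markers, all detected on every array, was 7607 and 4394 on samples 1 and 2 and between 1139 and 4001 on the others. For 9 B cell markers it was 150 and 75.8, against 16.6 to 40.4. The part of these cells in the Hox readings was not tested, and in such bulk samples fewer cells of a type and less RNA per cell cannot be told apart. Endothelial markers, another possible source of Hox transcripts, were detected on all arrays for 5 of 6 genes, with Cdh5 undetected, and their summed signal was 21.1 to 35.7 in wild type and 19.0 to 31.1 in NIKaly/aly. Their part was not tested.

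The comparison of genotypes asks whether LSK cells with defective NIK carry other Hox levels. No Hox gene differed detectably. Of the 9 tested, 6 read higher in NIKaly/aly and 3 lower, with a median difference of 0.18 log2 units and a range from -0.21 to 0.57. Of all tested genes, 7612 (48.5%) read higher, with a median difference of -0.01. By limma with Benjamini-Hochberg adjustment over 15687 genes, 0 of 9 Hox genes passed an adjusted p of 0.05, and 0 of all genes (0.0%) did. At an unadjusted p under 0.05 there were 0 Hox genes and 209 genes in all (1.33%). The ranges of both genotypes overlapped for all 9, while 716 of all genes (4.56%) did not overlap. With consecutive sample numbers taken as pairs in the fit, which the labels do not state, 0 of 9 passed the adjusted threshold (0.0127% of all genes) and 0 an unadjusted p under 0.05 (7.35% of all genes). None of the 9 was 2-fold apart, against 324 of all genes (2.07%).

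Hoxa2 had the largest difference, with means of -2.60 ± 0.71 in wild type and -2.03 ± 1.05 in NIKaly/aly (SD, n = 3 each), 0.57 ± 0.68 log2 units apart (SE; 95% interval -1.01 to 2.15). It was well above background on 1 wild-type and 2 NIKaly/aly arrays, so its means, difference and interval include bounds. Hoxa3 was 0.41 ± 0.69 higher in NIKaly/aly (-1.19 to 1.996), and Hoxa9 was 0.22 ± 0.46 higher (-0.83 to 1.27). The second Hoxa9 probe gave 0.27, with an unadjusted p of 0.384 in limma. The interval for Hoxa9 thus reaches more than a 2-fold increase, and these arrays do not show that its level was the same.

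Hoxa5 differed by 0.18 ± 0.72 (-1.48 to 1.84), Hoxa10 by 0.18 ± 0.33 (-0.58 to 0.94) and Hoxb2 by 0.15 ± 0.61 (-1.25 to 1.55). Hoxa6 was at -0.14 ± 0.75 (-1.87 to 1.59), Hoxa7 at -0.14 ± 0.38 (-1.02 to 0.74) and Hoxb4 at -0.21 ± 0.49 (-1.34 to 0.92). The differences of Hoxa5, Hoxa6 and Hoxb2 include bounds. Hoxa10 had the narrowest interval, and its bounds stayed within a 2-fold change either way. The adjusted p was 0.999976 for each of the 9 in limma, and the unadjusted p ran from 0.428 to 0.852. Leaving out wild type 1, the sample with the lowest readings for several Hoxa genes, moved the median difference from 0.18 to -0.29. Leaving out NIKaly/aly 2 moved it to 0.58.

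**Figure D4:**
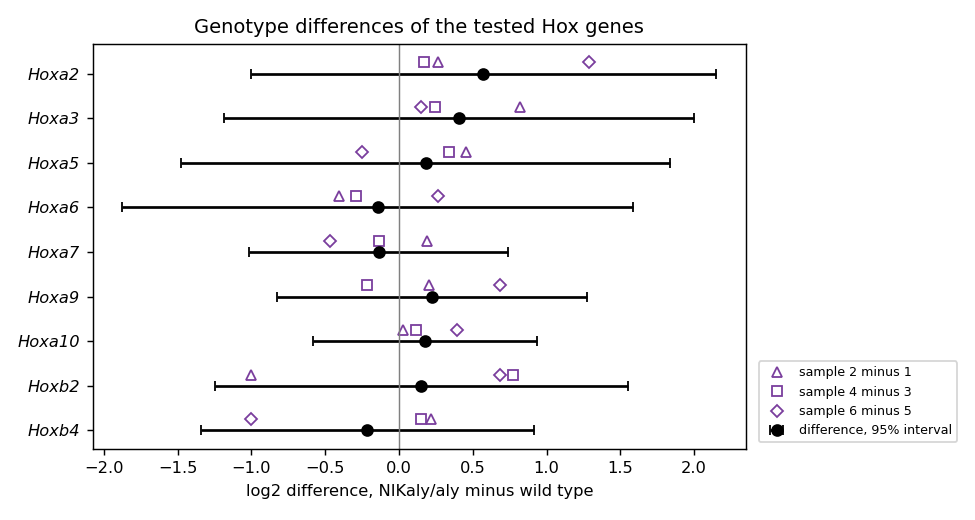
Difference NIKaly/aly minus wild type in log2 units (x axis) for the 9 tested Hox genes, with points for the limma estimate and bars for the 95% interval; open markers give the differences between samples of consecutive numbers, which the labels do not pair. Every bar crosses 0, and the bar of Hoxa10 is the shortest.

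Other RNAs lie between the Hox genes. Of the RNAs listed by name, Hoxa11as, an antisense partner of Hoxa11, and HOTAIR, a long RNA of the Hoxc cluster, were undetected on all arrays, as was Evx1 beside Hoxa13. The other 4 on the array, Evx2 beside Hoxd13, Skap1 beyond the Hoxb cluster, and Skap2 and Snx10 beyond the Hoxa cluster, were detected on all 6 arrays. Evx2, a homeobox gene of limb and spinal cord, read -0.10, -1.35 and -0.71 in the wild-type samples and -1.12, -1.03 and -0.52 in the NIKaly/aly samples, which overlapped. Probes of other names placed between the outermost Hox probes, an addition chosen after positions and flags were seen, numbered 38. Of these, 11 were detected on at least 1 array: 10 of 22 in the Hoxb cluster, 1 of 5 in Hoxa, and 0 of 6 in Hoxc and 0 of 5 in Hoxd. Between the outermost probes of Hoxc and Hoxd, then, no probe of either kind was detected apart from that of Hoxd9.

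The Hoxa probe was 2700086A05Rik, now called Hoxaas3, at chr6:52160572-52160631 between the probes of Hoxa6 and Hoxa7. The files place it on the minus strand, as they do the Hoxa probes shown above, although the RNA's current name is that of an antisense RNA. It was singled out after its values were seen. It was detected on all 6 arrays, at -0.95, 1.03 and 1.38 in the wild-type samples and -0.89, 1.21 and 0.22 in the NIKaly/aly samples. Samples 1 and 2 were its lowest, as for the adjoining Hoxa6, and the genotypes differed by -0.31 ± 0.71. Which strand's RNA the probe read was not tested.

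In the Hoxb cluster, a long non-coding RNA between Hoxb5 and Hoxb4 had 3 probes (the outermost bases at chr11:96175777-96176029), detected on 2, 2 and 4 arrays. An unnamed probe at chr11:96110121-96110180, between Hoxb13 and Hoxb9, read between 8.19 and 9.61 on all arrays, although the Hoxb13 and Hoxb9 probes on its sides were undetected.

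The genes that work with Hox proteins were detected more widely. The TALE list held 12 genes, among them Pbxip1, which binds Pbx proteins and is not itself a TALE gene. Of the 12, 10 were detected on all 6 arrays, and Meis2 and Pknox2 on none. Meis1, the partner of Hoxa9, read 4.70, 5.30 and 5.27 in the wild-type samples and 5.16, 5.55 and 5.48 in the NIKaly/aly samples. The genotypes overlapped, with a difference of 0.30 ± 0.31 (SE).

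Of the 10 tested genes of the TALE list, Pbxip1 included, 4 read higher and 6 lower in NIKaly/aly. The median difference was -0.04, and 0 passed the adjusted threshold. Genotypes did not overlap for 1 of the 10, Pbx3, against 4.56% of all tested genes. Pbx3 read -0.39, -0.12 and 0.18 in the wild-type samples and 0.34, 0.42 and 0.38 in the NIKaly/aly samples. The difference was 0.49 ± 0.28. Tgif1, a repressor of the TALE group, differed by 0.28 and Meis3 by -0.18.

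Of 36 genes that regulate Hox clusters, 29 were tested, and Aff4, Cbx8, Cdx1, Cdx2 and Cdx4 were undetected. In NIKaly/aly 17 read higher and 12 lower, the median difference was 0.01, and 0 passed. Bmi1, a subunit of Polycomb repressive complex PRC1, differed by 0.36, and Rnf2, the ubiquitin ligase of that complex, by 0.27. Psip1, which tethers MLL and menin to chromatin, differed by 0.41 ± 0.27 without overlap.

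Of 17 genes reported as targets of Hoxa9 and Meis1, all were tested, 13 read higher in NIKaly/aly and 4 lower, with a median of 0.10 and 0 passing. Hlf, a transcription factor of stem cells, differed by 0.42, Cd34, a progenitor surface protein, by 0.31, Lmo2 by 0.29 and Igf1 by -0.37. Genotypes did not overlap for 1 of the 17 targets, Lmo2, against 4.56% of all tested genes. Without 1 array, the median of the targets ran from 0.0028 (without NIKaly/aly 4) and 0.013 (without wild type 1) to 0.18 (without NIKaly/aly 2), and Hlf ran from 0.14 to 0.75. The summed signal of the 10 LSK markers, which share Cd34 and Flt3 with the targets, was 238 to 277 in wild type and 284 to 318 in NIKaly/aly, without overlap. Cd34 was the brightest of them, and its log2 readings overlapped, at 6.93 to 7.53 in wild type and 7.31 to 7.76 in NIKaly/aly. The sum without Cd34 was not tested. Of the 9 tested LSK markers, 5 read higher in NIKaly/aly and 4 lower, with Ly6a at -0.68. Procr was the 1 of these 9 without overlap, against the same 4.56% of all tested genes. Of 6 macrophage markers, 4 were tested and 0 passed the adjusted threshold. Their summed signal was 29.0 to 48.6 in wild type and 18.1 to 21.6 in NIKaly/aly, but without Csf1r it was 6.22 to 10.3 and 5.39 to 8.52, which overlapped. The part of these markers in the list values was not tested.

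**Figure D5:**
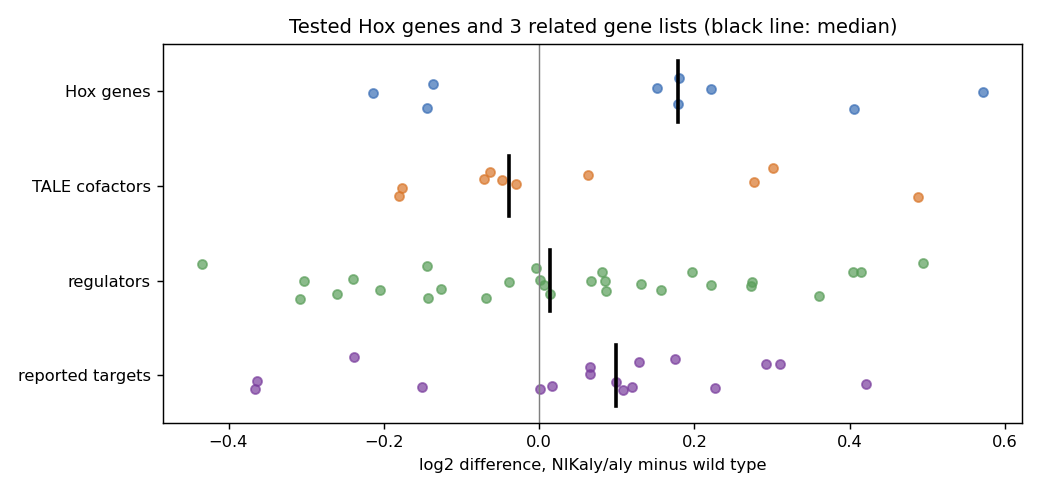
Difference NIKaly/aly minus wild type in log2 units (x axis) for each tested gene of the Hox clusters and of the cofactor, regulator and target lists (rows), with a line at each list's median. The medians are 0.18 for the 9 Hox genes, -0.04 for TALE cofactors, 0.01 for regulators and 0.10 for targets.

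The promoter sequences of Hox genes were richer in CpG than most. RefSeq promoters (build GRCm38.p6, 250 bases before the start) matched 22 of the 39 genes, with 24 promoters. Their median GC content was 58.6%, against 52.4% over 32851 promoters of all genes, and their median number of CpG dinucleotides was 12.5, against 6. The 10 promoters of genes detected on at least 1 array had a median of 13.5 CpG, and the 14 of undetected genes a median of 12.

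Motifs of the cofactors were searched on both strands. TGATTNAT, bound by Pbx and Hox together, was in 2 of 24 Hox promoters (8.33%) and in 2.82% of all promoters. TGACAG, bound by Meis and Tgif proteins, was in 2 (8.33%) and in 15.9% of all. The NF-kB motif was in 0 of 24 and in 3.9% of all. The Hoxa2 promoter holds both cofactor motifs and the Hoxa3 promoter holds TGACAG, and both are shown with the motifs in capitals. They lie on the minus strand at chr6:52164832-52165081 and chr6:52213068-52213317 of GRCm38.p6. The Hoxa3 promoter so matched lies between those of Hoxa6 (chr6:52208673-52208922) and Hoxa7 (chr6:52218574-52218823). The detected Hoxa3 probe lies elsewhere, between the probes of Hoxa2 and Hoxa4. Hoxd11, undetected on all arrays, also holds TGATTNAT. These matches describe letters, not binding.

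Hoxa2: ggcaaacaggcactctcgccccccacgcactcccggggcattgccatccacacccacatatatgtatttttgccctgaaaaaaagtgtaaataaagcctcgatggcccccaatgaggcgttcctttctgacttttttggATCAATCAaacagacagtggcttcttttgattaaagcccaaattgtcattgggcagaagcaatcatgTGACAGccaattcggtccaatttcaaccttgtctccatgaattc

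Hoxa3: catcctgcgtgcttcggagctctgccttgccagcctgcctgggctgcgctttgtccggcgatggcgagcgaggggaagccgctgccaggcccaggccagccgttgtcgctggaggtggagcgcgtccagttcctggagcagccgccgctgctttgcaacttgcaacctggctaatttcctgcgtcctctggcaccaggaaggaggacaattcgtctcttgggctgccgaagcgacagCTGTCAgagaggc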

How the data were processed

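LSK RNA was amplified, labelled with Cy3 and hybridised to Agilent whole mouse genome arrays, per the labels' protocols. Per the file headers, the deposited scanner files came from Agilent Feature Extraction 10.7.3.1, which gave each spot's intensity, its background-subtracted processed intensity and the detection marks, with probe positions on mm9. The authors' deposited table was a ratio of each processed signal to the array median, found by comparing the files, and served as an alternative. Control spots were left out, and spots of a probe averaged. The log2 processed signal minus the array's 75th percentile was tested with limma 3.58.1 in R 4.3.3 (two-sided, intensity trend, 4 residual degrees of freedom). Genes needed a probe well above background on at least 3 of 6 arrays, and the brightest such probe stood for a gene. P-values were adjusted by Benjamini-Hochberg over 15687 genes at 0.05. The fit was tested on simulated data. A list's summed signal adds the linear values of its genes.

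The Hox genes and all gene lists were chosen with earlier results of these data known. Every Hox gene was named with its detection, those detected on at least 1 array were given with all readings, and of each other list Meis1 and up to 4 genes with the smallest p were named; some genes and sequences under these rules are not reported here. The number of arrays limits the precision. Alternatives covered background, scaling, filter, probe choice, weights, slide position, single arrays and consecutive sample numbers, 21 settings in all. RefSeq gave promoter sequences, matched by symbol.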

Additional observations from a re-analysis of the deposited data

How the results depend on the processing

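No alternative brought a tested Hox gene past the adjusted threshold in limma. Over all genes, 0 passed in the main setting, against 10 with array median scaling, 9 with the authors' deposited table, 2 with no filter on dim probes, 5 with array weights and 1378 with the slide column as a random block, whose estimated correlation was -0.875. Under that block 1 TALE gene (Pbx3) and 3 regulators, Psip1 and Bmi1 among them, passed. Each slide column held arrays of 1 genotype only, so this fit cannot separate column from genotype. Its standard error was 0.11 for Pbx3 and 0.098 for Psip1, against 0.28 and 0.27 in the main setting. The genes passing under this block are therefore not read as genotype differences. The labels pair no samples, and sample numbers are not shared between genotypes. With consecutive numbers as a block (1 with 2, 3 with 4, 5 with 6), 2 of all genes and 0 Hox genes passed, and 1153 genes had an unadjusted p under 0.05 (7.35%). Leaving out 1 array gave 0 to 1 genes over the whole array (1 without wild type 3) and a Hox median from -0.29 to 0.58. By single gene these ranges were 0.09 to 1.13 for Hoxa2, -0.33 to 0.93 for Hoxa3, -0.49 to 0.71 for Hoxa5, -0.74 to 0.58 for Hoxa6, -0.41 to 0.15 for Hoxa7, -0.13 to 0.59 for Hoxa9, -0.0031 to 0.33 for Hoxa10, -0.27 to 0.50 for Hoxb2, -0.67 to 0.13 for Hoxb4 and -0.41 to 0.0477 for Meis3. They were 0.11 to 0.42 for Meis1, 0.35 to 0.63 for Pbx3, 0.19 to 0.37 for Tgif1 and 0.22 to 0.56 for Psip1. Bmi1 ran from 0.17 to 0.47, Rnf2 from 0.17 to 0.39 and Hlf from 0.14 to 0.75. Cd34 ran from 0.18 to 0.48, Lmo2 from 0.19 to 0.39 and Igf1 from -0.79 to -0.0723. The medians ran from -0.0768 to 0.0800 for the TALE list, -0.0173 to 0.0452 for regulators and 0.0028 to 0.18 for targets. Within slide row 1 (samples 1 to 4), signs turned for Hoxa7 (0.0278), Hoxa9 (-0.0097), Hoxb2 (-0.11) and Hoxb4 (0.18). The sign also turned for Hoxa6 with normexp (0.0102), for Hoxb2 with the slide column block (-0.10), and for Hoxb4 (0.10) and Meis3 (0.0871) with array weights. Without samples 1 and 2, the TALE median was 0.18 and Meis3 was 0.15. By the looser detection mark, 10 Hox genes passed on all 6 arrays, 31 on at least 1 and 8 on none. The cause of these moves was not tested. Signal over background left bounds in place of levels for Hoxa2 on samples 1, 2 and 5, for Hoxa5 on sample 1, and for Hoxa6 and Hoxb2 on samples 1 and 2.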
